A study of Mus musculus with 24 samples.

Results

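Ribosome footprints were followed on 10 genes for heat shock chaperones and the proteins that work with HSP90, in the livers of 24 male mice. The genes were chosen by name, as Hsp90aa1, Hsp90ab1, Hspa8, Hsph1, Stip1, Fkbp4, Bag3, Hspb1, Dnajb1 and Ahsa1, from the 22429 genes of the deposited count table. All 10 were found, and all 10 passed the filter on low counts, which kept 12211 genes. A footprint is the stretch of mRNA that a ribosome shields from nuclease, so footprint counts reflect how much a gene is being translated. Matched mRNA libraries were not analysed here, so a change in footprints was not split into mRNA level and translation per mRNA. Bulk liver also cannot tell fewer cells of a type from less RNA per cell.

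The mice were F1 hybrids of the C57BL6J and FVBN strains, housed singly, in 6 groups of 4. The groups were Ercc1 d/- mutants at 16 weeks on 30% dietary restriction (restricted mutants), Ercc1 d/- mutants at 16 weeks with free access to food (fed mutants), Ercc1 d/- mutants at 7 weeks with free access to food (young mutants), Ercc1 +/+ wild types at 104 weeks with free access to food (old wild types), Ercc1 +/+ wild types at 16 weeks on 30% restriction (restricted wild types) and Ercc1 +/+ wild types at 16 weeks with free access to food (fed wild types). ERCC1 is a subunit of a nuclease that repairs DNA, the mutants carry a truncated and a null allele in every cell of the body, and they age early. Restriction began at week 7 and was at its full 30% from week 9, all mice ate the same synthetic diet, and none received food before collection on the last day. Nothing in the labels says whether replicate numbers mark a litter or a day. The p-values set group differences against the spread between animals within groups. A litter or day shared within a group would not be accounted for.

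Heat shock chaperones bind proteins that are unfolded or not yet folded and help them reach or regain their shape. HSP70 proteins act first, with J-domain partners that bring clients and nucleotide exchange factors that release them, and HSP90 takes over partly folded clients such as kinases and steroid receptors with a set of cochaperones. Many of these genes are switched on together by the transcription factor HSF1 when proteins misfold or temperature rises, and in liver their level also follows the daily rhythm of feeding and body temperature.

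Total counts per library ran from 13366558 to 27084259. Ercc1 itself was at 0.0502 to 0.82 CPM (counts divided by the scaled library size) in the 12 mutant libraries and at 1.92 to 4.86 CPM in the 12 wild-type libraries, with no overlap. All 9 hepatocyte markers in the table were detected in every group, with summed levels of 106652 to 261785 CPM. Albumin took 13.6 to 17.4% of counts in restricted mutants, 14.2 to 18.6% in restricted wild types and 4.68 to 10.7% in the other 16 libraries. Some libraries stand apart for the chaperones. Restricted mutants 1 and 2 were below every restricted wild type for all 10 genes, while replicates 3 and 4 were so for 6 and 8 of them. Old wild types 1 and 3 held the highest levels of the inducible HSP70 genes Hspa1a and Hspa1b. For the 10 genes and the gene groups listed, counts that rest on these libraries are given with and without them.

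HSF1 binds repeats of the 5-base unit nGAAn in alternating orientation. RefSeq promoter windows of build GRCm38.p6, from 250 bases before to 50 bases after the annotated start, were at hand for 7 of the 10 genes in 9 windows, and for Hsp90aa1, Hsp90ab1 and Hspa8 there was none. Each was searched for 2 adjoining units, written GAANNTTC or TTCNNGAA, and for 3 adjoining units; each 2-unit form reads the same on both strands, and a 3-unit match holds both 2-unit forms in overlap. A 2-unit match was present in 5 of the 9 windows, of 4 genes, against 15.1% of 32851 mouse promoter windows, and a 3-unit match in the windows of 1 gene, Hsph1, against 0.603%. One window with a match is given here for each of the 4 genes, with the matching bases in capitals; a second Hsph1 window, which overlaps the first and holds the same matches, is left out. They are shown because their windows hold a match. Stip1, Dnajb1 and Ahsa1, whose windows hold none, were also called in comparisons that follow. Windows were also searched for 9 of the 10 genes of most similar pattern, named further below. Chordc1, an HSP90 partner among these 9, is added as the only one with a 3-unit match, and holds 3 that overlap. Dnaja1 had a 2-unit match in 1 of its 3 windows, and Ahsa2, Cacybp, Hspa4l, Slc5a3, P4ha1, Sdr9c7 and Qdpr had none. Of all 27025 mouse genes with windows, 4587 had a 2-unit match. Each line reads 5′ to 3′ along the gene's strand.
Hsph1: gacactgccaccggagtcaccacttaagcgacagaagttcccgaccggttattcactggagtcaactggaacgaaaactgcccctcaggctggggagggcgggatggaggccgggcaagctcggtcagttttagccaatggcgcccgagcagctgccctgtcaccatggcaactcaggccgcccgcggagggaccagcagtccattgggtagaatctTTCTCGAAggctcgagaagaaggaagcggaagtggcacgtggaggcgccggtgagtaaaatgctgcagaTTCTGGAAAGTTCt
Fkbp4: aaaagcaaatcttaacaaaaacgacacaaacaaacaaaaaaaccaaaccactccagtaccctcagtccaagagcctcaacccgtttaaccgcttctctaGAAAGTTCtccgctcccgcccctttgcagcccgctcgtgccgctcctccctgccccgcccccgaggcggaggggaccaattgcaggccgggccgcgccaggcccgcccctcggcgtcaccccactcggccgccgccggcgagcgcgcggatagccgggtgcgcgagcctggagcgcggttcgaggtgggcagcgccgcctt
Bag3: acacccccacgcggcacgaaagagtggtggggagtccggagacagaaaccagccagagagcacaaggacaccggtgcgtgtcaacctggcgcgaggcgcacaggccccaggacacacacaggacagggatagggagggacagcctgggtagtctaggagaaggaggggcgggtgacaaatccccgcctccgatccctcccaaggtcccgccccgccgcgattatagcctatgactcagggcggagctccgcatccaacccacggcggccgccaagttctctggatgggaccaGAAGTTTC
Hspb1: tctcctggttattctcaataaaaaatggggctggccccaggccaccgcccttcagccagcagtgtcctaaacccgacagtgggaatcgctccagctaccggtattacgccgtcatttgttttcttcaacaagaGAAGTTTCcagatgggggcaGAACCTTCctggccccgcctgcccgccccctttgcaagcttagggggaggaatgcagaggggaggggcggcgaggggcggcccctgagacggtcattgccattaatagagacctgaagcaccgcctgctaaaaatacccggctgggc
Chordc1: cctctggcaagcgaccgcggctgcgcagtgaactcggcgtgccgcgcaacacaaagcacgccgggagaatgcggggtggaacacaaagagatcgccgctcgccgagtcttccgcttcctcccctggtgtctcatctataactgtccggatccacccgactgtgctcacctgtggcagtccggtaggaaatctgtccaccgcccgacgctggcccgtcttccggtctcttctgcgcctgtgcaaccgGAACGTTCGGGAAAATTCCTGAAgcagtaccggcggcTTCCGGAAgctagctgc
The Hsph1 window lies at chr5:149636287-149636586 on the minus strand, with the 3-unit match TTCTGGAAAGTTC at base 36 after the start and a 2-unit match 33 bases before it. The Fkbp4 window is chr6:128438607-128438906 on the minus strand, with its match 151 bases before the start. The Bag3 window is chr7:128523333-128523632 on the plus strand, with its match at base 42 after the start, and the Hspb1 window is chr5:135887669-135887968 on the plus strand, with matches 117 and 97 bases before the start. The Chordc1 window is chr9:18292017-18292316 on the plus strand, with its 3-unit matches beginning 4 bases before and at bases 1 and 6 after the start. The windows of Stip1, Dnajb1 and Ahsa1 hold no match, which says only that these letters are absent from them. A match is a description of letters and not a bound site.

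The central comparison set restricted mutants against restricted wild types, which asks how the genotypes differ on the same restricted diet. Footprints on 8 of the 10 genes were lower in restricted mutants, and none was higher. Of all 12211 genes, 18.2% were called in this comparison and 8.85% were called lower (edgeR quasi-likelihood F test, adjusted p under 0.05, adjusted over all genes). The median log2 change of the 10 genes was -0.95, beside -0.01 over all genes. The changes ran from -0.38 for Hspa8 to -1.43 for Hspb1. In this comparison, a gene that fell was lower in restricted mutants than in restricted wild types, whatever its level in fed mice. Here and below, the share of all genes whose groups do not overlap was not counted, so a lack of overlap is descriptive.

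**Figure D1:**
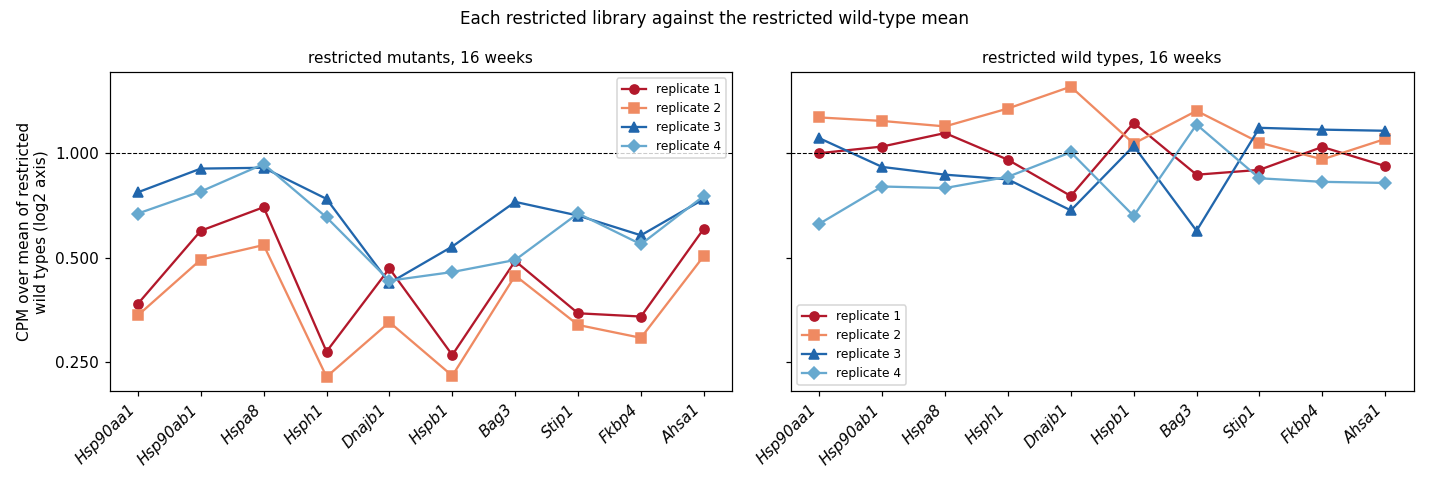
Footprints of each restricted library divided by the mean of the 4 restricted wild types (log2 axis), gene by gene along the horizontal axis, with restricted mutants on the left and restricted wild types on the right; a line joins the values of 1 library and the dashed line marks the restricted wild-type mean. Restricted mutants 1 and 2 run lowest over most genes, and restricted mutants 3 and 4 also lie at or below the dashed line for all 10 genes.

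HSP90 itself is made from a stress-inducible gene, Hsp90aa1, and a constitutive gene, Hsp90ab1. Hsp90aa1 had 284, 263, 594 and 516 CPM in restricted mutants 1 to 4, against 770, 977, 851 and 482 CPM in restricted wild types 1 to 4. Replicates 1 and 2 of the mutants lay far below every wild type, while replicates 3 and 4 lay above wild type 4, so the groups overlap. The gene fell 1.86-fold (log2 -0.89 ± 0.24 SE, adjusted p = 0.0105). Hsp90ab1 had 968, 799, 1462 and 1255 CPM in restricted mutants, against 1692, 2006, 1478 and 1298 CPM in restricted wild types, and fell 1.44-fold (log2 -0.53 ± 0.16, adjusted p = 0.0207). Mutant 3 was above the lowest wild type, so these groups overlap as well. The 2 genes are close in sequence, and how reads that fit both were counted is not given in the sources used here.

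The HSP70 machinery was uneven. Hspa8, the constitutive HSP70 of the cytosol, did not pass, with 2384, 1854, 3097 and 3175 CPM in restricted mutants and 3900, 4076, 2958 and 2707 CPM in restricted wild types (log2 -0.38 ± 0.19, adjusted p = 0.179). Mutants 3 and 4 lay within the wild-type range. Hsph1, the HSP110 exchange factor that carries the 3-unit promoter match shown above, had 49.5, 41.9, 136 and 121 CPM in restricted mutants, against 177, 249, 155 and 158 CPM in restricted wild types. Every mutant was below every wild type, with mutants 1 and 2 far below mutants 3 and 4, and the gene fell 2.12-fold (log2 -1.08 ± 0.31, adjusted p = 0.0189).

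Dnajb1, the J-domain protein that hands clients to HSP70 in the heat shock response, had 15.6, 10.9, 14.2 and 14.4 CPM in restricted mutants, against 25.2, 52.1, 22.9 and 33.7 CPM in restricted wild types. The groups do not overlap and the 4 mutants are close together, yet the gene did not pass (log2 -1.28 ± 0.51, adjusted p = 0.0885). Bag3, an exchange factor that steers HSP70 clients to autophagy, had 29.1, 26.4, 43.1 and 29.3 CPM in restricted mutants, against 51.6, 78.8, 35.6 and 72.0 CPM in restricted wild types. Mutant 3 was above wild type 3, and all other mutants were below all wild types. Bag3 fell 1.86-fold (log2 -0.89 ± 0.26, adjusted p = 0.019), a call that 5 of the 8 fits leaving out 1 library of these groups did not keep (adjusted p up to 0.0671).

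Hspb1, the small heat shock protein that holds unfolded proteins until HSP70 can act, gave the largest difference of the 10. It had 30.7, 26.8, 63.1 and 53.3 CPM in restricted mutants, against 143, 125, 123 and 77.3 CPM in restricted wild types. The groups do not overlap, and Hspb1 was 2.7-fold lower in restricted mutants (log2 -1.43 ± 0.38, adjusted p = 0.0119). Its mean was 43.5 CPM in restricted mutants, 57.8 CPM in fed mutants and 41.3 CPM in fed wild types.

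The 3 HSP90 cochaperones all fell, and in none of them did the groups overlap. Stip1, also called HOP, bridges HSP70 and HSP90, and had 58.0, 53.7, 111 and 113 CPM in restricted mutants, against 150, 180, 199 and 142 CPM in restricted wild types. Even the highest mutant was below the lowest wild type, and Stip1 fell 2.00-fold (log2 -1.0 ± 0.19, adjusted p = 0.000704). Fkbp4, the immunophilin FKBP52 that serves steroid receptors, had 90.4, 78.5, 155 and 146 CPM in restricted mutants, against 279, 257, 313 and 221 CPM in restricted wild types. All 4 mutants were well under the lowest wild type, and Fkbp4 fell 2.27-fold (log2 -1.19 ± 0.17, adjusted p = 3.14e-05), the smallest adjusted p of the 10. Ahsa1, or AHA1, speeds the ATPase of HSP90, and had 53.8, 44.9, 65.4 and 66.8 CPM in restricted mutants, against 81.4, 97.5, 103 and 72.8 CPM in restricted wild types. It fell 1.54-fold (log2 -0.62 ± 0.15, adjusted p = 0.00513).

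Without restricted mutants 1 and 2 together, 12.3% of all genes were called and 5.67% were called lower. Of the 10 genes 2 were called, both lower: Fkbp4 (log2 -0.83, adjusted p = 0.0016) and Stip1 (log2 -0.59, adjusted p = 0.0307). The other 8 kept a negative change, from -0.13 for Hspa8 to -1.24 for Dnajb1. Without mutant 1, without mutant 2 or without restricted wild type 2, each alone, 5 were called. Over all genes, fits with 1 library of these groups left out called 1864 to 2251, against 2227 in the full fit. A fit of these 8 libraries alone called 4 of the 10 and 769 of all genes. Over the 8 fits that left out 1 library, Hsph1 lost its call in 3 (adjusted p up to 0.0614), Hsp90ab1 in 3 (up to 0.079) and Bag3 in 5, while Fkbp4, Stip1, Ahsa1, Hspb1 and Hsp90aa1 kept theirs in all 8.

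**Figure D2:**
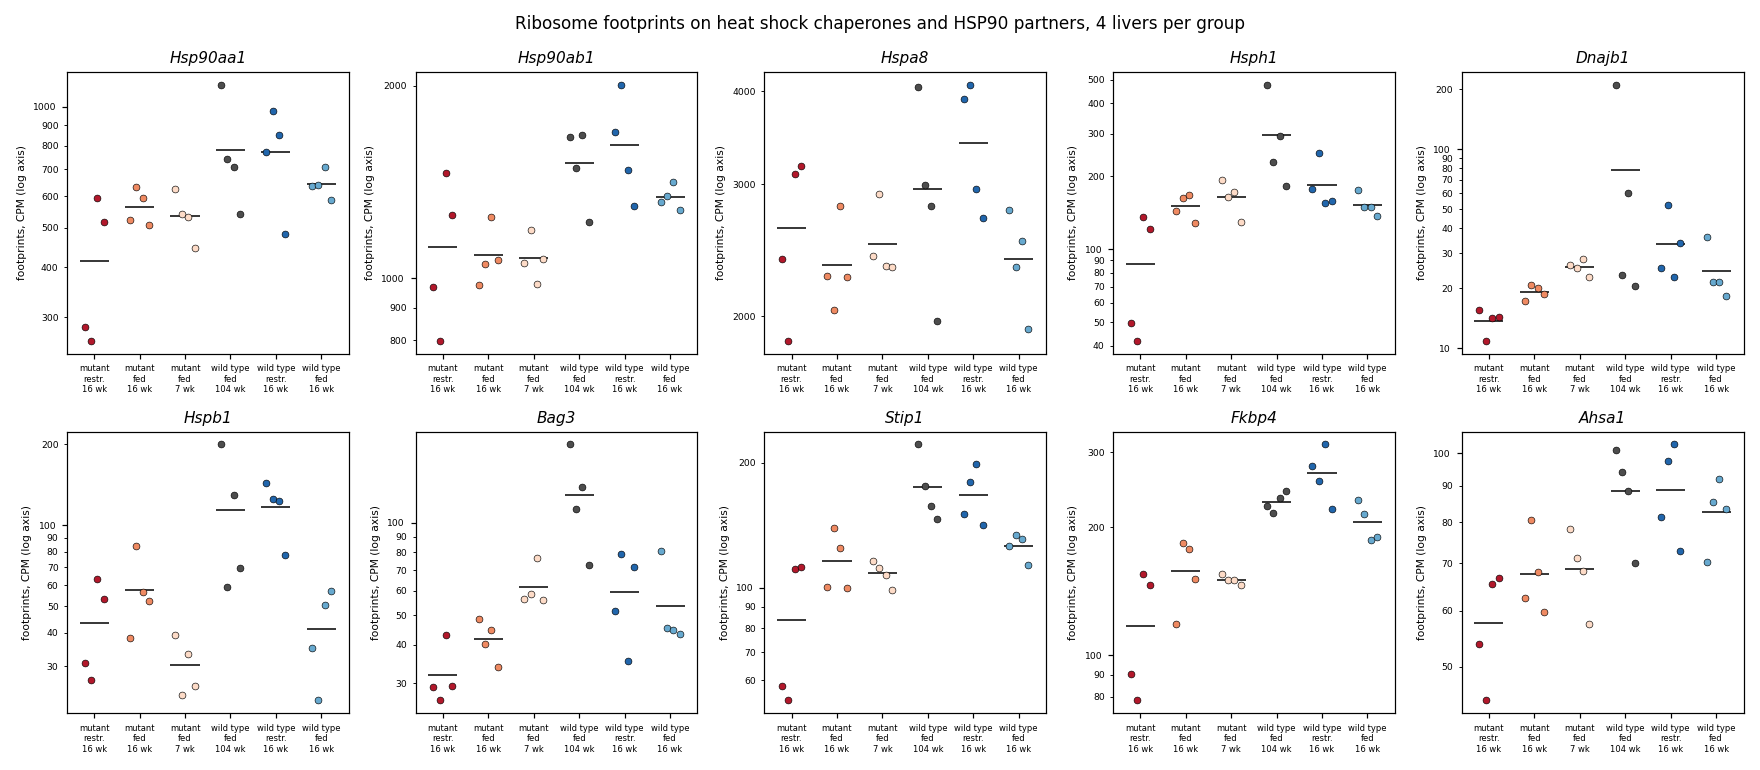
Footprints per library (CPM, log axis) for each of the 10 genes, 1 point per liver and a bar at the mean of the 4 livers of a group. Restricted mutants, at the left of each panel, have the lowest mean for Hsp90aa1, Hsph1, Dnajb1, Bag3, Stip1, Fkbp4 and Ahsa1, and either old or restricted wild types have the highest mean of every gene.

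Over all 24 libraries the 10 genes varied to different degrees. The ratio of the highest to the lowest library was 19.2 for Dnajb1, 11.4 for Hsph1, 8.91 for Hspb1 and 6.80 for Bag3, against 2.20 for Hspa8, 2.30 for Ahsa1 and 2.51 for Hsp90ab1. In the order of group means the highest was old wild types for Hsp90aa1, Hsph1, Stip1, Bag3 and Dnajb1 and restricted wild types for the others. The lowest was restricted mutants for 7 genes, young mutants for Hsp90ab1 and Hspb1, and fed mutants for Hspa8. Neighbours in that order overlapped in their libraries, except restricted over fed wild types for Stip1, fed wild types over fed mutants for Fkbp4, and fed over restricted mutants for Dnajb1. The 10 genes also varied together within groups: after each group's mean was removed, all 45 pairs of genes had a positive correlation over the 24 libraries, with a median r of 0.63 and a range of 0.04 to 0.90. These are descriptive, and the points share their library.

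In wild types, restriction was set against free feeding. Of the 10 genes 1 was called, Hspb1, and it was higher, where 12.1% of all genes were called and 5.44% were called higher. Hspb1 had 143, 125, 123 and 77.3 CPM in restricted wild types, against 35.0, 22.4, 50.7 and 57.1 CPM in fed wild types. The groups do not overlap, and Hspb1 rose 2.84-fold (log2 1.51 ± 0.38, adjusted p = 0.0125). All 10 changes were positive, with a median log2 of 0.33 beside 0.02 over all genes. Hspa8 had a log2 change of 0.52 ± 0.19 (adjusted p = 0.08), Stip1 of 0.41 ± 0.19 (adjusted p = 0.175) and Fkbp4 of 0.38 ± 0.17 (adjusted p = 0.156), and these did not pass. Stip1 nonetheless was higher in all 4 restricted wild types than in any fed wild type, which had 127, 134, 131 and 114 CPM.

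In mutants, restriction against free feeding gave 0 of 10 calls by edgeR, where 11.6% of all genes were called, and DESeq2 also called 0. Of the 10 genes 3 had an unadjusted p under 0.05 by edgeR, the largest being 0.0219 for Stip1. That p ranked 2255 among the 12211 genes tested, so the 11.6% is no background for the count of 3. Of the changes 8 were negative, with a median log2 of -0.42. Hsph1, with 144, 162, 167 and 129 CPM in fed mutants, had a log2 change of -0.79 ± 0.31 (adjusted p = 0.11). Restricted mutants 1 and 2 lay far below all fed mutants for Hsph1, while mutant 3 lay between fed mutants 4 and 1. Stip1 (-0.47 ± 0.19, adjusted p = 0.118), Fkbp4 (-0.43 ± 0.17, adjusted p = 0.113) and Hsp90aa1 (-0.45 ± 0.24, adjusted p = 0.245) did not pass. These values rested on restricted mutants 1 and 2. Without both, the log2 change was -0.23 for Hsph1, -0.06 for Stip1, -0.07 for Fkbp4 and -0.02 for Hsp90aa1, and the median of the 10 was -0.05. Without restricted mutant 3, 3 of the 10 were called, where 1463 of all genes were called. Without fed mutant 1 or restricted mutant 4, 1 of the 10 was called. Over all genes, fits with 1 library of these groups left out called 934 to 1463, against 1420 in the full fit. The comparisons within each genotype share libraries with the comparison across genotypes above, so the 3 sets of values are not independent.

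Whether restriction acted differently in mutants was tested as an interaction, the response of mutants less that of wild types. All 10 values were negative, with a median log2 of -0.76 beside -0.02 over all genes, and 0 of 10 were called by edgeR, where 0.803% of all genes were called. At an unadjusted p under 0.05 there were 5, namely Hspb1, Fkbp4, Stip1, Hsph1 and Hsp90aa1. The largest of these edgeR p-values, 0.0453 for Hsp90aa1, ranked 1473 among the 12211 genes tested. The 0.803% is therefore no background for the count of 5. The values were -1.92 ± 0.53 for Hspb1 (adjusted p = 0.0915), -0.80 ± 0.24 for Fkbp4 (adjusted p = 0.119) and -0.88 ± 0.27 for Stip1 (adjusted p = 0.132). Without restricted mutants 1 and 2 the median was -0.41 and 9 of the 10 values were negative, with -1.51 for Hspb1, -0.46 for Fkbp4, -0.48 for Stip1, -0.51 for Hsph1 and -0.30 for Hsp90aa1, while Hsp90ab1 stood at 0.04. DESeq2 called 1 of the 10, Hspb1, and 279 of all genes. Without restricted mutant 3 edgeR called 1 of the 10. Over all genes, edgeR fits with 1 library left out called 61 to 205, against 98 in the full fit. A difference in the response to restriction was therefore not shown for any of the 10 at this threshold by edgeR.

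**Figure D3:**
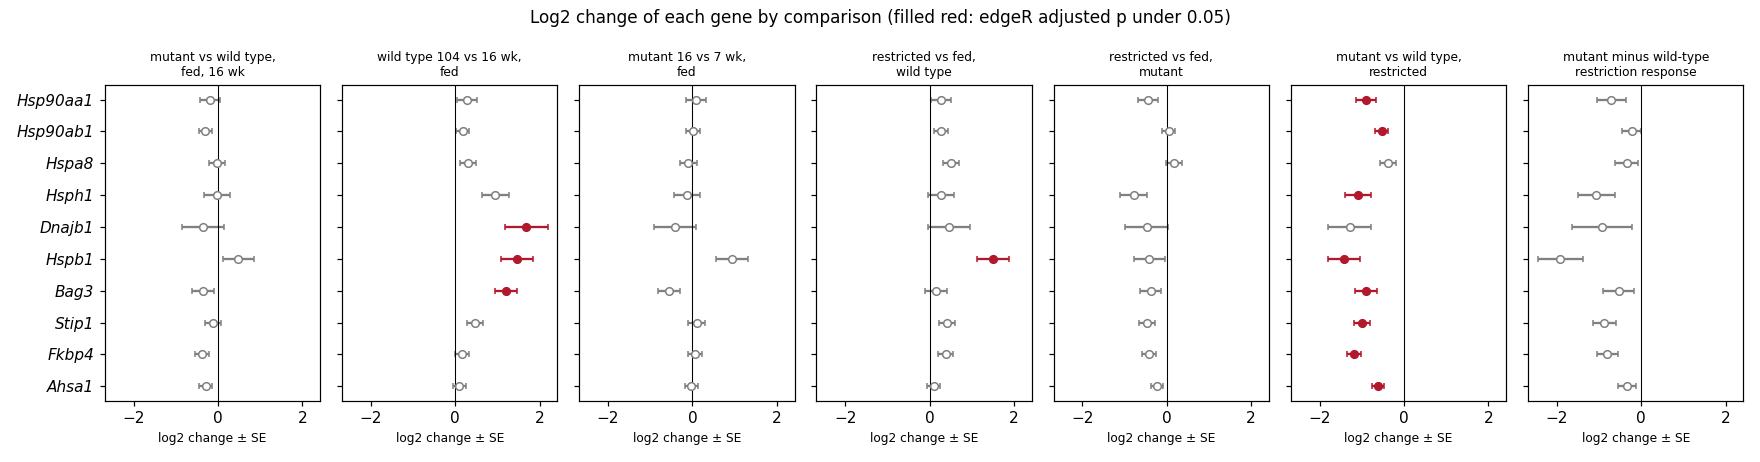
Log2 change of footprints with its standard error for each of the 10 genes in the 7 comparisons; filled red points have an edgeR adjusted p under 0.05 over all genes. Red points stand at the negative side for 8 genes in restricted mutants against restricted wild types, and at the positive side for Dnajb1, Hspb1 and Bag3 in old wild types and for Hspb1 in restricted wild types.

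The ratio of Hsp90aa1 to Hsp90ab1 footprints was looked at after these values were seen and carries no test. It was 0.293, 0.329, 0.407 and 0.411 in restricted mutants, against 0.536, 0.600, 0.475 and 0.476 in fed mutants, and 0.455, 0.487, 0.576 and 0.371 in restricted wild types. The restricted mutants lay below all fed mutants, and replicates 3 and 4 lay above the lowest restricted wild type. Fed wild types were close together at 0.482, 0.474, 0.503 and 0.459.

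Fed mutants were set against fed wild types of 16 weeks to ask what the genotype does on a full diet. None of the 10 was called by edgeR or DESeq2, where 10.7% of all genes were called by edgeR, and 1 had an unadjusted p under 0.05. That gene was Fkbp4, with 119, 184, 178 and 151 CPM in fed mutants, against 232, 215, 186 and 189 CPM in fed wild types. Every fed mutant was below every fed wild type, with a log2 change of -0.38 ± 0.17 (adjusted p = 0.166). The unadjusted edgeR p of Fkbp4, 0.0351, ranked 2580 among the 12211 genes tested. Hsp90ab1 had 975, 1053, 1247 and 1068 CPM in fed mutants, against 1316, 1347, 1412 and 1279 CPM in fed wild types, with no overlap and a log2 change of -0.30 ± 0.16 (adjusted p = 0.247). The other 8 overlapped between the groups, and the median of the 10 was -0.24. The share of all genes without overlap was not counted, so the separation of Fkbp4 and Hsp90ab1 is descriptive.

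In mutants, 16 weeks was set against 7 weeks on a full diet. None of the 10 was called by edgeR or DESeq2, where 0.434% of all genes were called by edgeR, and 2 had an unadjusted p under 0.05. The larger of the 2 edgeR p-values, 0.0401 for Bag3, ranked 988 among the 12211 genes tested. Bag3 had 48.6, 40.3, 44.8 and 33.8 CPM in fed mutants of 16 weeks, against 56.3, 58.6, 76.6 and 56.0 CPM in young mutants, without overlap (log2 -0.56 ± 0.26, adjusted p = 0.492). Hspb1 had 38.2, 83.8, 56.5 and 52.6 CPM in fed mutants of 16 weeks, against 39.1, 23.4, 33.3 and 25.4 CPM in young mutants, and mutant 1 lay inside the younger range (log2 0.93 ± 0.38, adjusted p = 0.408). Dnajb1 did not overlap either, at 17.3, 20.7, 20.2 and 18.7 CPM in fed mutants of 16 weeks and 26.0, 25.2, 28.1 and 22.8 CPM in young mutants, and had a log2 change of -0.41 ± 0.50.

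Old wild types of 104 weeks were set against fed wild types of 16 weeks to ask what normal ageing does. Of the 10 genes 3 were called, Bag3, Hspb1 and Dnajb1, all higher, where 9.34% of all genes were called and 4.75% were called higher. All 10 changes were positive, with a median log2 of 0.39 beside 0.01 over all genes. Bag3 had 180, 111, 131 and 72.9 CPM in old wild types, against 81.1, 45.3, 44.9 and 43.4 CPM in fed wild types of 16 weeks. All old livers but replicate 4 were above every younger one, which overlaps through the younger replicate 1, and Bag3 rose 2.30-fold (log2 1.20 ± 0.26, adjusted p = 0.00486).

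Hspb1 had 200, 59.1, 129 and 69.8 CPM in old wild types, against 35.0, 22.4, 50.7 and 57.1 CPM in fed wild types of 16 weeks, with no overlap. It rose 2.77-fold (log2 1.47 ± 0.38, adjusted p = 0.0175). Dnajb1 had 210, 23.4, 60.3 and 20.6 CPM in old wild types, against 36.2, 21.5, 21.5 and 18.3 CPM in the younger ones. Old wild types 1 and 3 were high and old wild types 2 and 4 lay inside the younger range, beside a log2 change of 1.68 ± 0.51 (adjusted p = 0.0424). Hsph1 had 477, 229, 295 and 182 CPM in old wild types, against 175, 149, 150 and 137 CPM in the younger ones. Every old liver was above every younger one, and Hsph1 did not pass (log2 0.95 ± 0.31, adjusted p = 0.0584).

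These calls rested on few libraries. Without old wild types 1 and 3 together 0 of the 10 were called by edgeR, where 4.15% of all genes were. The log2 changes were 0.77 for Bag3 (adjusted p = 0.139), 0.64 for Hspb1 (adjusted p = 0.41) and -0.16 for Dnajb1 (adjusted p = 0.846). Without old wild type 1 alone the count was 1 and Dnajb1 stood at a log2 change of 0.51, and without the younger replicate 2 the count was also 1. Over all genes, fits with 1 library of these groups left out called 755 to 1034, against 1141 in the full fit. Bag3 passed in each of the 8 fits that left out 1 library of these groups, with adjusted p from 0.00104 to 0.0235.

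The inducible HSP70 genes Hspa1a and Hspa1b, which HSF1 drives from near-identical copies so that their reads may be split between them, behaved alike in old livers. Hspa1a had 605, 99.3, 408 and 78.3 CPM in old wild types, against 183, 50.4, 52.4 and 32.3 CPM in fed wild types of 16 weeks (log2 1.90 ± 0.63, adjusted p = 0.0661). Old wild types 1 and 3 were again the high ones. Hspa1b had a log2 change of 1.93 ± 0.63 (adjusted p = 0.0621). Hspa1a had 49.8, 27.9, 65.9 and 63.1 CPM in restricted mutants, against 165, 147, 29.9 and 142 CPM in restricted wild types, and did not pass (log2 -1.23 ± 0.62, adjusted p = 0.182). Restricted wild type 3 lay among the mutants, and the other 3 wild types were above them all. Fed mutants of 16 weeks had 61.7, 46.8, 50.9 and 40.4 CPM of Hspa1a, against 130, 98.3, 135 and 97.2 CPM in young mutants, with no overlap and no call (log2 -1.20 ± 0.62, adjusted p = 0.564).

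Other gene groups moved in the same old livers, where 9.34% of all genes were called and 4.75% were called higher. Of 15 tested immediate-early genes, which answer within minutes to growth signals, 10 were higher in old wild types and none was lower, with Junb at a log2 change of 4.03 ± 0.54 and Maff at 3.47 ± 0.71. Summed over the 20 genes listed, old wild types 1 to 4 had 1130, 134, 273 and 133 CPM, against 88.6, 77.7, 72.8 and 93.0 CPM in fed wild types of 16 weeks, so that old wild types 1 and 3 were again highest. Of 15 clock genes 2 were higher and 4 lower, with Nr1d1 at 3.68 ± 0.43 and Cry1 at -1.97 ± 0.21. Of 12 macrophage markers 10 were higher, with sums of 424 to 576 CPM in old wild types and 271 to 319 CPM in the younger ones. Without old wild types 1 and 3, 1 of the immediate-early genes was higher, 2 of the macrophage markers were higher, and of 16 clock genes then tested 3 were higher and 4 lower. Of all genes, 1.83% were higher and 2.32% lower in that fit. The part of these groups in the chaperone changes was not tested.

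Within the heat shock system as listed from textbook knowledge, 2 of 33 HSP70 and J-domain genes were higher in old wild types, where 4.75% of all genes were, Dnaja4 (log2 1.20 ± 0.26, adjusted p = 0.00438) and Hspa4 (0.47 ± 0.13, adjusted p = 0.0198). Of 4 tested small heat shock protein genes 1 was higher, Hspb8, the partner of BAG3 (0.67 ± 0.16, adjusted p = 0.0073). Of 18 HSF factors, regulators and targets 3 were higher, Hmox1, Ier5 and Tsc22d2, and 1 was lower, Hsf2 (-0.72 ± 0.21, adjusted p = 0.0278). Without old wild types 1 and 3, Hmox1 remained called (1.06 ± 0.30, adjusted p = 0.0444), while Dnaja4 (0.86 ± 0.28, adjusted p = 0.0846), Hspa4 (0.30 ± 0.14, adjusted p = 0.273), Hspb8 (0.34 ± 0.16, adjusted p = 0.273) and Hsf2 (-0.70 ± 0.27, adjusted p = 0.166) did not pass. Hsf1 itself was not called in any of the 7 comparisons by edgeR, and its levels lay between 2.49 and 6.27 CPM over all 24 libraries.

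In restricted mutants against restricted wild types, 4 of 27 other genes of the HSP90 cochaperone list were lower and none was higher, where 8.85% of all genes were lower and 18.2% were called either way. They were Cacybp, which links HSP90 to ubiquitin ligases (log2 -1.14 ± 0.19, adjusted p = 0.000104), Ahsa2, a relative of Ahsa1 (-1.09 ± 0.23, adjusted p = 0.00139), Chordc1 (-0.74 ± 0.20, adjusted p = 0.00931) and Pih1d1, of the R2TP complex (-0.60 ± 0.17, adjusted p = 0.0175). Of 33 genes of the HSP70 and J-domain list, which includes other HSP70 partners, 4 were lower and 1 higher: Hspa4l, an HSP110 relative, had a log2 change of -1.20 ± 0.25, St13, the HSP70-interacting protein, -0.44 ± 0.11, Sil1 -0.46 ± 0.12, Dnajb2 -0.67 ± 0.21 and Hspa2 1.06 ± 0.33. Of 4 tested small heat shock protein genes Hspb6 was lower (-1.0 ± 0.30, adjusted p = 0.0197), and of 18 HSF factors, regulators and targets Mrpl18 was lower (-0.93 ± 0.18) and Rbbp7 higher (0.55 ± 0.15). The medians were -0.23 for the cochaperones and -0.27 for the HSP70 and J-domain genes, beside -0.01 over all genes. Without restricted mutants 1 and 2, Cacybp (-0.81 ± 0.20, adjusted p = 0.00756), Hspa4l (-0.77 ± 0.25, adjusted p = 0.0492), Sil1 (-0.48 ± 0.16, adjusted p = 0.043) and Mrpl18 (-1.01 ± 0.23, adjusted p = 0.0046) passed. The others named here did not, with adjusted p from 0.053 for Ahsa2 to 0.37 for Hspa2.

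Of 16 chaperones and stress genes of the endoplasmic reticulum 5 were lower in that comparison and none was higher, with a median log2 of -0.84, among them Herpud1 (-1.16 ± 0.30), Dnajc3 (-0.66 ± 0.18) and Pdia4 (-1.12 ± 0.36). Their summed level was 4692, 5115, 7171 and 7219 CPM in restricted mutants, against 5187, 5496, 16477 and 8516 CPM in restricted wild types, with restricted wild type 3 highest. Without restricted mutants 1 and 2, 1 of the 16 was lower, where 5.67% of all genes were, and the median of the 16 was -0.67. Of 14 chaperonin and prefoldin genes Pfdn1 was higher and Pfdn6 lower, with a median of -0.04. Of 12 mitochondrial chaperone genes Hspa9 was higher and Clpb lower, with a median of -0.07. Of these 4, Pfdn1 alone passed without restricted mutants 1 and 2 (adjusted p = 0.00529).

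Markers of liver cell types and clock genes also differed between restricted mutants and restricted wild types, where 18.2% of all genes were called and 8.85% were called lower. Of 9 hepatocyte markers 4 were lower, Ttr, Serpina1c, Apoa2 and Apoa1, and Cps1 was higher, with a median log2 of -0.39 and sums of 176287 to 216674 CPM in restricted mutants and 189263 to 261785 CPM in restricted wild types. Of 12 macrophage markers 5 were higher, with sums of 538 to 686 CPM in restricted mutants and 322 to 510 CPM in restricted wild types. Of 9 stellate cell markers 4 were higher, Col1a1, Col1a2, Col3a1 and Rgs5, with sums of 443 to 596 CPM in restricted mutants and 329 to 638 CPM in restricted wild types. Of 15 clock genes 3 were lower, among them Per2 (-1.11 ± 0.23) and Hlf (-0.93 ± 0.21), and Ciart was higher (1.96 ± 0.51), with a median of -0.39. With restricted mutants 1 and 2 left out, 4 hepatocyte markers were lower and 1 higher, 2 macrophage markers and 1 stellate cell marker were higher, and of 16 clock genes then tested 2 were lower. Of all genes, 6.67% were higher and 5.67% lower in that fit. The part of these groups in the chaperone changes was not tested.

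Rbm3 and Cirbp, RNA-binding proteins that rise when cells or bodies cool, were higher in restricted mutants than in restricted wild types, where the chaperones were lower. Rbm3 had 49.4, 44.7, 34.5 and 59.0 CPM in restricted mutants, against 28.3, 26.5, 15.2 and 30.1 CPM in restricted wild types. Every restricted mutant was above every restricted wild type, and Rbm3 rose (log2 0.90 ± 0.19, adjusted p = 0.00153). Cirbp had 5.91, 5.91, 5.45 and 4.65 CPM in restricted mutants, against 2.22, 1.73, 1.99 and 4.06 CPM in restricted wild types, without overlap (log2 1.14 ± 0.29, adjusted p = 0.0073). With restricted mutants 1 and 2 left out, Rbm3 passed (0.89 ± 0.23, adjusted p = 0.0124) and Cirbp did not (1.02 ± 0.35, adjusted p = 0.0575).

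Rbm3 was also higher under restriction within each genotype, by 1.15 ± 0.19 on the log2 scale in restricted over fed mutants (adjusted p = 0.000183) and by 0.82 ± 0.19 in restricted over fed wild types (adjusted p = 0.00605). In the wild types the 10 chaperone changes were positive as well, while in the mutants 8 of 10 were negative. Without restricted mutants 1 and 2, 7 of 10 were negative in the mutants, with a median log2 of -0.05. Fed mutants had 19.3, 17.2, 26.3 and 21.8 CPM of Rbm3 and fed wild types 13.2, 13.2, 18.1 and 12.2 CPM. Restricted mutants lay above all fed mutants, and restricted wild type 3 lay within the fed wild-type range. Cirbp did not pass in either diet comparison, at 0.84 ± 0.29 in mutants (adjusted p = 0.0605) and -0.10 ± 0.30 in wild types (adjusted p = 0.868). Body temperature is not among the labels used here, and a link of Rbm3 or Cirbp to the chaperone changes was not tested.

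**Figure D4:**
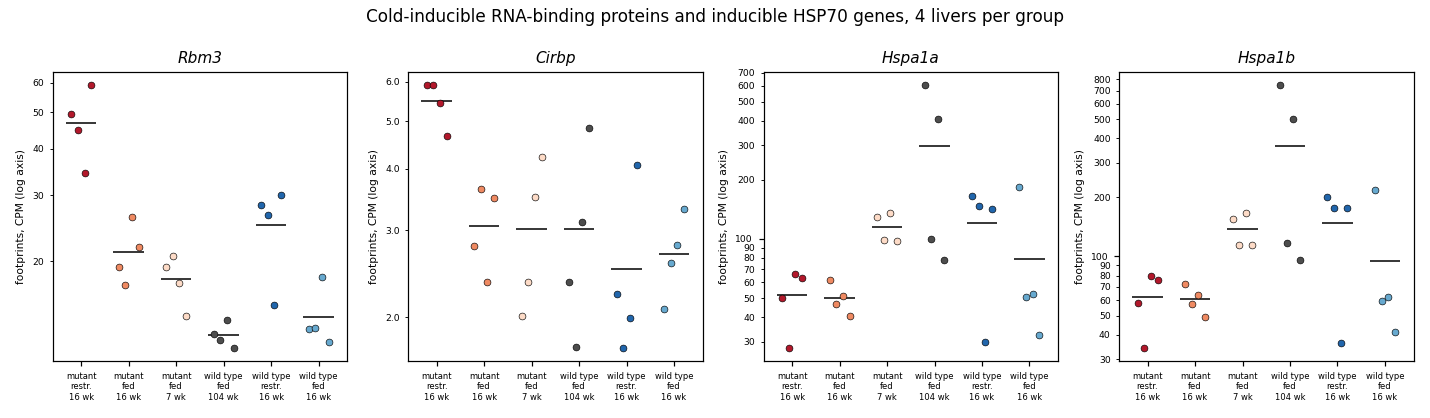
Footprints per library (CPM, log axis) for Rbm3, Cirbp, Hspa1a and Hspa1b, 1 point per liver and a bar at the group mean. Restricted mutants, at the left, hold the highest group means of Rbm3 and Cirbp, and old wild types 1 and 3 stand above all other libraries for Hspa1a and Hspa1b.

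Under restriction in wild types, 3 of 14 chaperonin and prefoldin genes were higher, Cct4 (log2 0.53 ± 0.12), Cct5 (0.47 ± 0.12) and Tcp1 (0.52 ± 0.14), and none was lower, where 5.44% of all genes were higher; their proteins form the ring that folds actin and tubulin. Of 33 HSP70 and J-domain genes 1 was higher, Dnajc7 (0.50 ± 0.12), and of 27 cochaperone genes 2 were higher, Ruvbl2 (0.52 ± 0.14) and Sugt1 (0.38 ± 0.12). Of 18 HSF factors, regulators and targets 2 were higher, led by Hmox1 (1.52 ± 0.25), and 2 were lower, led by Chac1 (-3.40 ± 0.89). Under restriction in mutants, where 11.6% of all genes were called, 2 of 33 HSP70 and J-domain genes were higher, Hspa2 (1.91 ± 0.35) and Dnajc7 (0.46 ± 0.12). There, 3 of 27 cochaperone genes were lower, among them Ppid, an HSP90-bound cyclophilin (-0.60 ± 0.15), and 1 of 4 small heat shock protein genes, Hspb6 (-1.32 ± 0.30). Once restricted mutants 1 and 2 were left out, Hspa2 passed (1.40 ± 0.38, adjusted p = 0.0317), and Dnajc7 (0.32 ± 0.14, adjusted p = 0.198), Ppid (-0.49 ± 0.19, adjusted p = 0.14) and Hspb6 (-1.24 ± 0.38, adjusted p = 0.0592) did not. In fed mutants against fed wild types, where 10.7% of all genes were called, 1 of 27 cochaperone genes was higher, Nudcd2 (0.73 ± 0.16), and of 33 HSP70 and J-domain genes Dnajc8 was higher (0.58 ± 0.18) and Sil1 lower (-0.44 ± 0.12).

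Outside the 10, the genes with the most similar pattern over the 24 libraries were found by Pearson's r of log2 CPM with the mean of the 10 standardised profiles, among 7365 genes with a mean of at least 5 CPM. The closest were Ahsa2 at r = 0.906, Cacybp at 0.905, Stard4 at 0.899, Hspa4l at 0.894 and Chordc1 at 0.867. Slc5a3 at 0.861, Dnaja1 at 0.835, P4ha1 at 0.834, Sdr9c7 at 0.806 and Qdpr at 0.803 completed the first 10. Dnaja1, a J-domain partner of HSP70, had the highest r of the 10 once group means were removed, at 0.931. These values describe the 24 libraries, which also share depth and scaling between genes.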

How the data were processed

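The deposited gene table gives raw counts of footprint reads for each gene in each library, judged by its whole numbers. The submitters' processing notes name cutadapt 3.4, Trimmomatic 0.39, Bowtie2 2.4.2, STAR (2.7.0f, 2.7.8a) and featureCounts of Subread 1.6.4, on build GRCm38.p6. Which step each served, and how strand and multiply fitting reads were handled, is not given in the sources used here, so near-identical copies (Hspa1a and Hspa1b, Hsp90aa1 and Hsp90ab1) are uncertain one by one. The deposited table of open reading frames names no gene and was not used.

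The 10 genes were taken by symbol. They, the gene lists and the comparisons were chosen with earlier results of these data known. Counts were analysed in R 4.3.3 with edgeR 4.0.16: filterByExpr over the 6 groups kept 12211 of 22429 genes, TMM set the effective library sizes, and all 24 libraries were fitted together by a robust quasi-likelihood model with a term for each group (18 residual degrees of freedom, biological coefficient of variation 24.2%). Each of 7 contrasts was tested 2-sided by the quasi-likelihood F test, with Benjamini-Hochberg adjustment over all tested genes and a threshold of 0.05. A standard error is the size of the log2 change divided by the square root of F. CPM uses TMM-scaled library sizes, and log2 CPM a prior count of 2. The test was tried on simulated data. Total counts per library were 13366558 to 27084259. Within-group pairs of libraries differed beyond sampling noise in all 36 cases (chi-square per degree of freedom 14.2 to 179), so none was a copy of another. The closest were young mutants 1 and 3 (14.2), young mutants 2 and 4 (16.2) and restricted mutants 3 and 4 (23.5). Each library was counted as 1 replicate, and whether livers within a group were independent was not tested.

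Named besides the 10 were up to 3 called genes per list and comparison with the smallest adjusted p, with the remaining called genes of short lists added after their values were seen, Hsf1, Hspa1a, Hspa1b, Cirbp and Rbm3, the 10 genes of most similar pattern, and Ercc1. The names Fam46b, Cct6a and Tf of the lists were not matched in the table. The HSP70 and J-domain list also holds other HSP70 partners, such as Bag1, Hspbp1, Stub1, St13 and Sil1. The cochaperone list also holds Hsp90b1 and Trap1, which are HSP90 proteins themselves. Hsp90b1 also stands in the endoplasmic reticulum list and Trap1 in the mitochondrial list. Alternatives were other scalings, no filter, DESeq2 1.42.0, a replicate block, a fit of the compared groups alone, each library left out, and, added after seeing the data, restricted mutants 1 and 2 or old wild types 1 and 3 left out together. Promoter sequences are from RefSeq on GRCm38.p6. Levels per coding length and protein features were not analysed here, so levels are not compared between genes.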

Additional observations from a re-analysis of the deposited data

Results flagged for a closer look

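Each of the 60 groups of 4 libraries, 10 genes by 6 groups, was searched for 1 library far from the others by Dixon's ratio at its 95% critical value. Chance alone flags about 1 in 20 groups, and 3 values were found. Bag3 stood at 76.6 CPM in young mutant 3, where the other 3 young mutants had 56.0 to 58.6 CPM. Bag3 stood at 81.1 CPM in fed wild type 1 of 16 weeks, where the other 3 had 43.4 to 45.3 CPM. The same library was highest of its group for Dnajb1, Hspa8, Hsph1, Fkbp4, Hspa1a and Hspa1b, and lowest for Ahsa1. Hspa8 stood at 2912 CPM in young mutant 2, where the other 3 had 2329 to 2404 CPM. None of these 3 values decides a call in the text above: young mutants entered no called comparison, and Bag3 in old over fed wild types passed with that library left out.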

How the results depend on the processing

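Restricted mutants against restricted wild types gave 8 of 10 genes called; 8 were called with RLE size factors, no filter, DESeq2 and the replicate block, 6 with library totals, 4 in a fit of the 8 compared libraries, 2 without restricted mutants 1 and 2 together, and 5 to 8 with 1 library left out. Over all genes that comparison called 2227, 769 in the fit of the compared libraries, 1552 without restricted mutants 1 and 2, and 1864 to 2251 with 1 library left out. Old against fed wild types gave 3, 4 by DESeq2, 2 with no filter or with the replicate block, 0 without old wild types 1 and 3 (all genes 523 against 1141), and 1 to 4 with 1 library left out (all genes 755 to 1034). Restriction in wild types gave 1, and 1 to 2 with 1 library left out (all genes 941 to 1864, 1483 in full, and 658 in the fit of the compared libraries). Restriction in mutants gave 0, and 0 to 3 with 1 library left out (all genes 934 to 1463 against 1420, and 628 without restricted mutants 1 and 2). The interaction gave 0, 1 by DESeq2, and 0 to 1 with 1 library left out (all genes 98, 279 by DESeq2, 61 to 205 with 1 library left out, and 51 without restricted mutants 1 and 2). Fed mutants at 16 against 7 weeks gave 0, and 1 in the fit of the compared libraries (all genes 53, 99 with library totals, 167 by DESeq2, 436 in that fit, and 17 to 43 with 1 library left out). Fed mutants against fed wild types gave 0 under every alternative run (all genes 1310, 2138 in the fit of the compared libraries, and 806 to 1090 with 1 library left out). The cause of these shifts was not tested.

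Sign changes were found among values that were not called, Dnajb1 in old livers excepted. With library totals, Hspa8 and Hsph1 turned to 0.065 and 0.084 in fed mutants against fed wild types, and Hspa8 and Ahsa1 to 0.012 and 0.095 in mutants at 16 against 7 weeks. Without restricted mutants 1 and 2, Hspb1 turned to 0.0069 for restriction in mutants and Hsp90ab1 to 0.038 in the interaction. Without old wild types 1 and 3, Hsp90aa1 turned to -0.0067, Dnajb1 to -0.16 and Ahsa1 to -0.017. With 1 library left out, the log2 change in mutants at 16 against 7 weeks ranged from -0.12 to 0.045 for Ahsa1, -0.021 to 0.18 for Fkbp4, -0.0033 to 0.16 for Hsp90aa1, -0.056 to 0.069 for Hsp90ab1 and -0.0077 to 0.17 for Stip1. In fed mutants against fed wild types it ranged from -0.12 to 0.052 for Hspa8 and -0.070 to 0.050 for Hsph1, for restriction in wild types from -0.021 to 0.42 for Bag3, and for restriction in mutants from -0.11 to 0.18 for Hsp90ab1. Same-numbered libraries had a mean correlation of deviations of 0.0071 (range -0.19 to 0.25), against a mean of -0.0022 for differently numbered ones. Of the same-numbered pairs 10 of 60 were over 0.1, and differently numbered pairs over 0.1 were not counted. These values show no general pairing by number, and cannot exclude a litter or day shared by some groups only. With 4 livers a group, counting error is small for these genes, and the spread between livers sets the precision.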
